A study of Mus musculus with 24 samples.

Results

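The 10 genes described here encode complement proteins, complement receptors and the Fc gamma receptors (FcγR) of mouse bone marrow–derived macrophages (BMDM). They are the 3 subunits of C1q (*C1qa*, *C1qb* and *C1qc*), the anaphylatoxin receptors *C3ar1* and *C5ar1*, the activating receptors *Fcgr1*, *Fcgr3* and *Fcgr4*, the inhibitory receptor *Fcgr2b*, and *Fcer1g*, the signaling chain that activating Fc receptors share. They were chosen by symbol, for their function, from the 56884 genes of the count table, with earlier results of these data known. All 10 passed a filter on low counts that 13679 genes passed. RNA of M-CSF–grown BMDM from 4 C57BL/6J mice, female and 9 weeks old and numbered 1, 2, 4 and 5, was sequenced in 6 conditions, giving 24 libraries. Naive cells received no cytokine, and the other 5 groups received IL-4 and IL-13 at 20 ng/ml each for 24 hours. Of these, 4 groups also received an agent that raises the integrated stress response (ISR), from 1 hour before the cytokines and then together with them. The agents were tunicamycin (5 µg/ml), which blocks protein N-glycosylation in the endoplasmic reticulum, Sal003 (10 µM), which blocks dephosphorylation of the initiation factor eIF2α, and oligomycin (1 µM), which blocks the mitochondrial ATP synthase. Oligomycin was given to 2 groups, and 1 of them also received ISRIB (1 µM), a compound that counteracts the ISR. The sample titles give ISRIB to the libraries named Oligo, whereas the library names give it to those named Oli_ISR. The conflict was not resolved here, so the groups are called Oligo and Oli_ISR after the library names, and no reading about ISRIB is drawn from them. All mice were wild type, every culture was grown with the same growth factor, and each mouse gave 1 library per group. The *P* values therefore rest on the spread between mice within groups, estimated over all 6 groups together and without a term for the mouse. The concentration of M-CSF is 50 ng/ml in the methods of the study and 50 µg/ml in the sample labels.

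Complement is a cascade of plasma proteins that marks microbes, immune complexes and dying cells. C1q, built from 3 homologous chains, is the recognition molecule of its classical pathway, and macrophages are a main source of it. The fragments C3a and C5a released by the cascade act on C3aR1 and C5aR1. Macrophages sense antibody-coated targets through FcγR. FcγRI, FcγRIII and FcγRIV signal through the tyrosine-based activation motif of the *Fcer1g* product, whereas FcγRIIb carries an inhibitory motif and raises the threshold of activation, so that the balance of both kinds sets the response to immune complexes.

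The libraries held 16238727 to 26725278 reads counted on genes (median 18999998). The members were counted from 405 to 60965 reads per library. Levels below are CPM, reads counted on a gene scaled to the normalized library size, in the order of mice 1, 2, 4 and 5. Changes are log2 fold changes from the quasi-likelihood test of edgeR, and *P* values were adjusted over all 13679 genes by the Benjamini-Hochberg method. The cytokine markers *Arg1* and *Retnla* had means of 0.0513 and 0.113 CPM in naive cells and of 455 and 7754 CPM with IL-4/IL-13. *Hspa5*, an endoplasmic reticulum chaperone, had a mean of 12367 CPM with tunicamycin against 1073 with the cytokines alone. All 9 macrophage markers were detected in every group, and their summed level was 31529 to 37447 CPM in naive cells, 12328 to 14748 with IL-4/IL-13, 16757 to 18389 with tunicamycin, 14569 to 16452 with Sal003, 9562 to 10405 in Oligo and 14164 to 16165 in Oli_ISR. Single markers went opposite ways, with *Adgre1* at 977 CPM with IL-4/IL-13 and 6678 with tunicamycin, and *Csf1r*, the M-CSF receptor, at 3732 and 821 CPM. The 7 neutrophil markers summed to 32.2 to 62.8 CPM in naive cells, 18.4 to 34.0 with IL-4/IL-13, 4.20 to 6.85 with Sal003, 1.98 to 3.72 in Oligo, 14.6 to 18.5 in Oli_ISR and at most 0.286 with tunicamycin. Of them, 3 (*Ly6g*, *Elane* and *Camp*) were at 0 in all libraries with tunicamycin and in Oligo. The 4 fibroblast markers summed to 3.67 to 132 CPM, and those of dendritic cells (2), B cells (4), T and NK cells (4), mast cells and basophils (4) and red cells (2) to at most 6.37, 1.90, 0.227, 1.31 and 0.162 CPM. The part of these markers in the members' differences was not tested. In bulk RNA, fewer cells of a type and less RNA per cell cannot be told apart.

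In GRCm39 (GENCODE M39) the C1q genes lie side by side on the minus strand of chromosome 4, in the order *C1qb* (136606009 to 136613511), *C1qc* (136616466 to 136620376) and *C1qa* (136623223 to 136626161), separated by 2954 and 2846 bases. Chromosome 1 holds *Fcgr2b* (170786186 to 170804177, minus strand), *Fcgr4* (170846466 to 170857330, plus strand), *Fcgr3* (170878738 to 170893549, minus strand) and *Fcer1g* (171057141 to 171062219, minus strand). *Fcgr1* lies on chromosome 3 (96190225 to 96201338), *C3ar1* on chromosome 6 (122823393 to 122833122) and *C5ar1* on chromosome 7 (15980668 to 15993465), all on the minus strand. Of the 100-base stretches of their transcripts, 3.00% of those of *Fcgr2b* and 2.11% of those of *Fcgr3* also occur on the same strand in transcripts of other genes, chiefly of each other. On the opposite strand, a noncoding RNA shares 8.64% of the exon bases of *C1qc* and 0.977% of those of *C1qb*, and another shares 6.06% of those of *Fcgr2b*. Whether reads were counted by strand is not given in the sources used here, so reads in these stretches could belong to either gene. No such stretch was found for *C1qa*, *C3ar1*, *C5ar1*, *Fcgr1*, *Fcgr4* or *Fcer1g*. The count table names the members by Ensembl identifier, namely ENSMUSG00000036887 (*C1qa*), ENSMUSG00000036905 (*C1qb*), ENSMUSG00000036896 (*C1qc*), ENSMUSG00000040552 (*C3ar1*), ENSMUSG00000049130 (*C5ar1*), ENSMUSG00000015947 (*Fcgr1*), ENSMUSG00000026656 (*Fcgr2b*), ENSMUSG00000059498 (*Fcgr3*), ENSMUSG00000059089 (*Fcgr4*) and ENSMUSG00000058715 (*Fcer1g*).

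RefSeq promoter windows of 300 bases (GRCm38.p6) were at hand for 9 members, with 2 windows for *Fcgr3* and none for *C1qa*. Each window was searched on both strands for the core of the myeloid factor PU.1 (GAGGAA), a Maf recognition core (TGCTGA), a STAT6-type site (TTCNNNNGAA), an interferon response core (GAAANNGAAA) and a composite core of ATF4 and CHOP (TGATGCAA). The PU.1 core was present in 6 of the 10 member windows and in 28.3% of all 32851 windows, and the Maf core in 5 of 10 and 19.5%. The 2 *Fcgr3* windows overlap and share their matches, so by gene the PU.1 core was in 5 of 9 and the Maf core in 4 of 9. The interferon response core was found in the *Fcgr4* window alone (3.44% of all windows). No member window held the STAT6-type site (6.95% of all windows) or the ATF4 and CHOP core (0.895%). The windows of *Fcgr2b* and *Fcer1g* held none of these motifs. In both, all 250 bases before the RefSeq start lie in annotated exons. So do 219 of these bases in each *Fcgr3* window and 151 in that of *C1qc*. A match describes letters only and shows no binding. The *C1qb* stretch below is shown as an example of a window with both myeloid motifs, which the *Fcgr3* windows also held, and that of *Fcgr4* for the interferon-type letters. They run from 250 bases before the RefSeq start to the end of the last match, with the matched letters in capitals, and were placed in GRCm39 by exact match at chr4:136613536-136613761 (minus strand) and chr1:170846245-170846478 (plus strand). Of these bases, 0 and 13 lie in annotated exons.
C1qb: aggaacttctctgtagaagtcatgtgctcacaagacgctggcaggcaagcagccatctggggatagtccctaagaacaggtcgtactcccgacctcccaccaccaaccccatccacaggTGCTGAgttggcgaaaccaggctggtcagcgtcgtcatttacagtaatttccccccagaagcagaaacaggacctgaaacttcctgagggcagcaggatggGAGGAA
Fcgr4: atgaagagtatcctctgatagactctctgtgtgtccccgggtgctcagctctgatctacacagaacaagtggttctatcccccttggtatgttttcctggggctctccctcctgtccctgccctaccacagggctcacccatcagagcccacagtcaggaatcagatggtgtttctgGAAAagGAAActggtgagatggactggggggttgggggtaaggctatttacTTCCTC
In *C1qb* the Maf core begins 131 bases before the start and the PU.1 core 30 bases before it. In *Fcgr4* the interferon response core begins 73 bases before the start and a PU.1 core on the other strand 22 bases before it.

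IL-4/IL-13 lowered most of these genes and raised the inhibitory receptor. Against naive cells, 8 of the 10 members were lower, as were 30.4% of all genes tested, and 2 were higher (*Fcgr2b* and *Fcgr3*, against 30.1% of all genes). At least 2.5-fold changes were seen for 4 members (*Fcgr1*, *C5ar1*, *Fcgr4* and *Fcgr2b*), against 11.5% of all genes. The median log2 fold change of the members was -0.87, and that of all genes -0.023.

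When an ISR-raising agent was added to the cytokines, the members split. The 4 comparisons below use the same 4 IL-4/IL-13 libraries as controls, so they are not independent of each other. With tunicamycin, 4 members rose and 6 fell (of all genes, 38.7% and 37.6%), and 7 changed at least 2.5-fold (22.6% of all genes). With Sal003, 4 rose and 4 fell (25.9% and 24.6%), with 2 at least 2.5-fold (7.71%). In Oligo, 2 rose and 6 fell (34% and 32.2%), with 4 at least 2.5-fold (12.7%). In Oli_ISR, 4 rose and 3 fell (27.9% and 26.4%), with 2 at least 2.5-fold (7.96%). The members' medians were -1.47, 0.11, -0.62 and 0.03 in these comparisons, against 0.0066, 0.0042, 0.006 and 0.0026 for all genes. *C3ar1* and *Fcgr1* were higher than with IL-4/IL-13 alone in all 4 agent groups, and *C1qa*, *C1qb* and *Fcgr3* were lower in all 4. The share of all genes that went 1 way in all 4 was not counted.

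The 2 oligomycin groups differed from each other in 8 of the 10 members, all lower in Oligo than in Oli_ISR, against 21.3% of all genes lower and 19.9% higher. Of these, 4 (*C1qa*, *C1qb*, *C5ar1* and *Fcgr4*) differed at least 2.5-fold, as did 2.62% of all genes, and *C1qc* was just short of this with 2.47-fold. This count of 4 ranged from 2 to 5 over the alternatives. *Fcgr1* and *Fcgr2b* did not pass the test, with 95% intervals of the log2 difference of -0.63 to 0.13 and -0.25 to 0.03. The members' median was -1.01, and that of all genes -0.002.

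Between Sal003 and Oli_ISR, *C1qa* and *C1qc* differed, 2 of 10 members against 18.5% of all genes, a share near that of all genes, and both were lower with Sal003 (log2 fold change -0.53, adjusted *P* = 0.0021, and log2 fold change -0.22, adjusted *P* = 0.047). With the replicate block and with DESeq2, *C1qb* was called as well. Without mouse 1, 2, 4 or 5 in turn, the count was 0, 3, 1 and 1. Between Sal003 and Oligo, 9 members differed, against 51.5% of all genes in either direction, and all 9 were higher with Sal003. Tunicamycin differed from Sal003 in 9 members, from Oligo in 8 and from Oli_ISR in 9, while 71.9%, 63.5% and 71.1% of all genes differed. Of the 8 that differed between tunicamycin and Oligo, none reached 2.5-fold, but the share of all genes that did was not counted for this comparison. Against naive cells, 10 members differed with tunicamycin, 9 with Sal003, 10 in Oligo and 10 in Oli_ISR, against 77.6%, 62.5%, 71% and 63.8% of all genes.

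**Figure D1:**
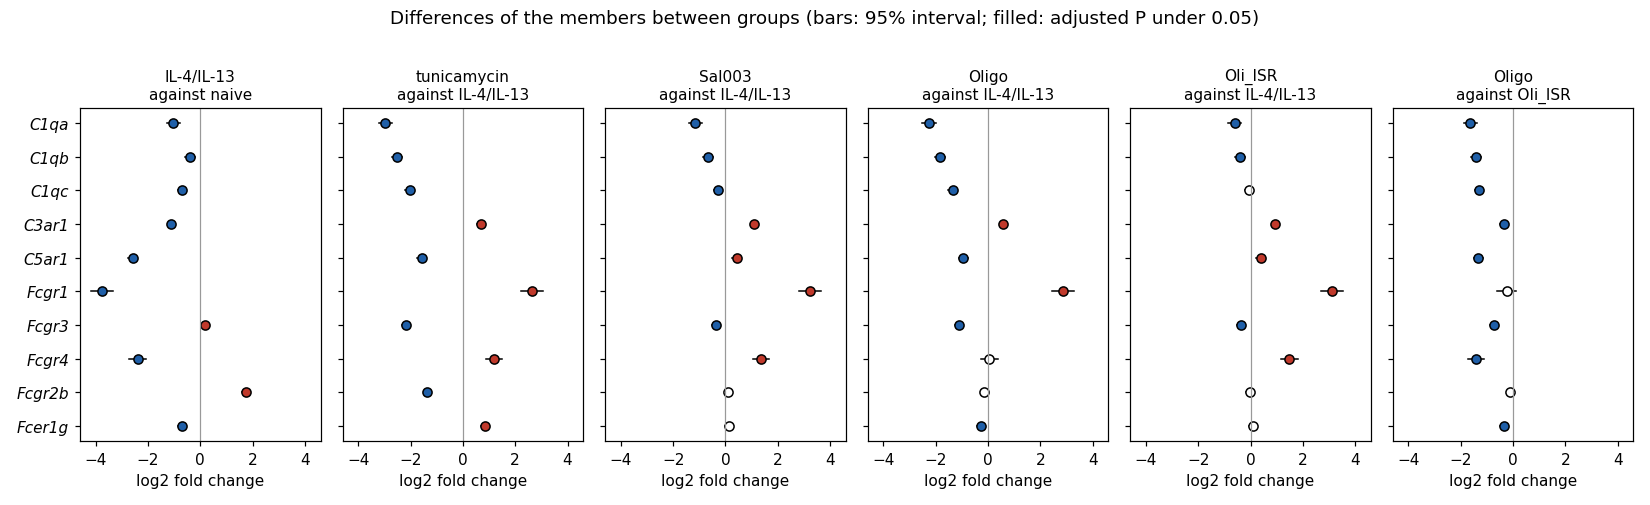
Log2 fold changes (x axis) of the 10 genes (rows) in 6 comparisons, with 95% intervals as bars and filled points (red for higher, blue for lower) where the adjusted *P* value was under 0.05. All 10 points are filled for IL-4/IL-13 against naive and for tunicamycin, 8 for Sal003, 8 for Oligo, 7 for Oli_ISR and 8 for Oligo against Oli_ISR.

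The C1q subunits were highest in naive macrophages and lowest with tunicamycin. *C1qa*, which encodes the A chain, was at 948, 1307, 893 and 781 CPM in the naive libraries, 492, 482, 476 and 477 CPM with IL-4/IL-13 and 63.2, 65.5, 54.5 and 63.9 CPM with tunicamycin. It was at 217, 234, 192 and 227 CPM with Sal003, 107, 112, 85.6 and 97.9 CPM in Oligo and 327, 350.03, 251 and 330.1 CPM in Oli_ISR. Ordered by level, the groups ran from naive over IL-4/IL-13, Oli_ISR, Sal003 and Oligo to tunicamycin, no range overlapped the next, and every step passed the test. *C1qa* fell by 2.04-fold with IL-4/IL-13 (log2 fold change -1.03, standard error 0.12, adjusted *P* = 3.4e-08) and by a further 7.8-fold with tunicamycin (log2 fold change -2.96, standard error 0.13, adjusted *P* = 9.5e-17). Naive mouse 2 stood above the other naive mice for all 3 subunits, with 1307, 3466 and 2242 CPM, and the falls with IL-4/IL-13 were called without that mouse as well.

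*C1qb*, the B chain, was at 2479.8, 3466, 2568 and 2271 CPM in naive cells and at 2008, 2081, 2079 and 2064 CPM with IL-4/IL-13, a smaller fall than that of *C1qa* (log2 fold change -0.39, standard error 0.09, adjusted *P* = 0.00051). It dropped to 365, 387, 336 and 356 CPM with tunicamycin (log2 fold change -2.51, standard error 0.09, adjusted *P* = 5.4e-18) and to 593, 620.1, 542 and 542 CPM in Oligo (log2 fold change -1.84, standard error 0.09, adjusted *P* = 5.1e-15). The Oli_ISR libraries, at 1561, 1697, 1377 and 1566 CPM, lay between those of IL-4/IL-13 and of Oligo without overlap with either. With Sal003 the level was 1278, 1406, 1240.2 and 1296 CPM, lower than Oli_ISR in 4 of 4 mice with overlapping ranges. This difference missed the threshold narrowly (log2 fold change -0.25, adjusted *P* = 0.053, 95% interval -0.43 to -0.06) and passed it with the mouse as a replicate block (adjusted *P* = 0.0082) and with DESeq2 (adjusted *P* = 0.038).

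*C1qc*, the C chain, was at 1754, 2242, 1832 and 1622 CPM in naive cells, 1112, 1127, 1186 and 1138 CPM with IL-4/IL-13 and 274, 304, 257 and 276 CPM with tunicamycin. Its Oli_ISR values, 1109.7, 1189.7, 978 and 1123 CPM, overlapped those of IL-4/IL-13 and did not pass the test (log2 fold change -0.05, adjusted *P* = 0.6, 95% interval -0.21 to 0.11). In Oligo it was at 455, 478, 420.2 and 429.7 CPM, below every IL-4/IL-13 library (log2 fold change -1.36, adjusted *P* = 1.2e-13), and with Sal003 at 929.9, 1009, 863 and 970.1 CPM (log2 fold change -0.27, adjusted *P* = 0.0046).

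In each of the 4 agent comparisons the A chain had the most negative log2 fold change of the 3 subunits and the C chain the least. The log2 fold changes of *C1qa*, *C1qb* and *C1qc* were -2.96, -2.51 and -2.04 with tunicamycin, -1.15, -0.66 and -0.27 with Sal003, -2.26, -1.84 and -1.36 in Oligo, and -0.61, -0.41 and -0.05 in Oli_ISR. On the scale of CPM per kilobase of annotated exons, *C1qa* made up 34.3 to 37.7% of the summed C1q level in the naive libraries, 28.4 to 30.1% with IL-4/IL-13, 19.1 to 20.5% with tunicamycin, 19.2 to 20.5% with Sal003, 18.5 to 20.8% in Oligo and 21.7 to 24.2% in Oli_ISR. The share of *C1qc* had means of 38.7% in naive cells, 38.8% with IL-4/IL-13 and 50.3% with tunicamycin. With the length of the canonical transcript in place of all exons, the mean share of *C1qa* was 30.2% in naive cells, 23.7% with IL-4/IL-13 and 16.3% with tunicamycin, so the level of the share depended on the length and its order over these groups did not. These shares are descriptions without a test.

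**Figure D2:**
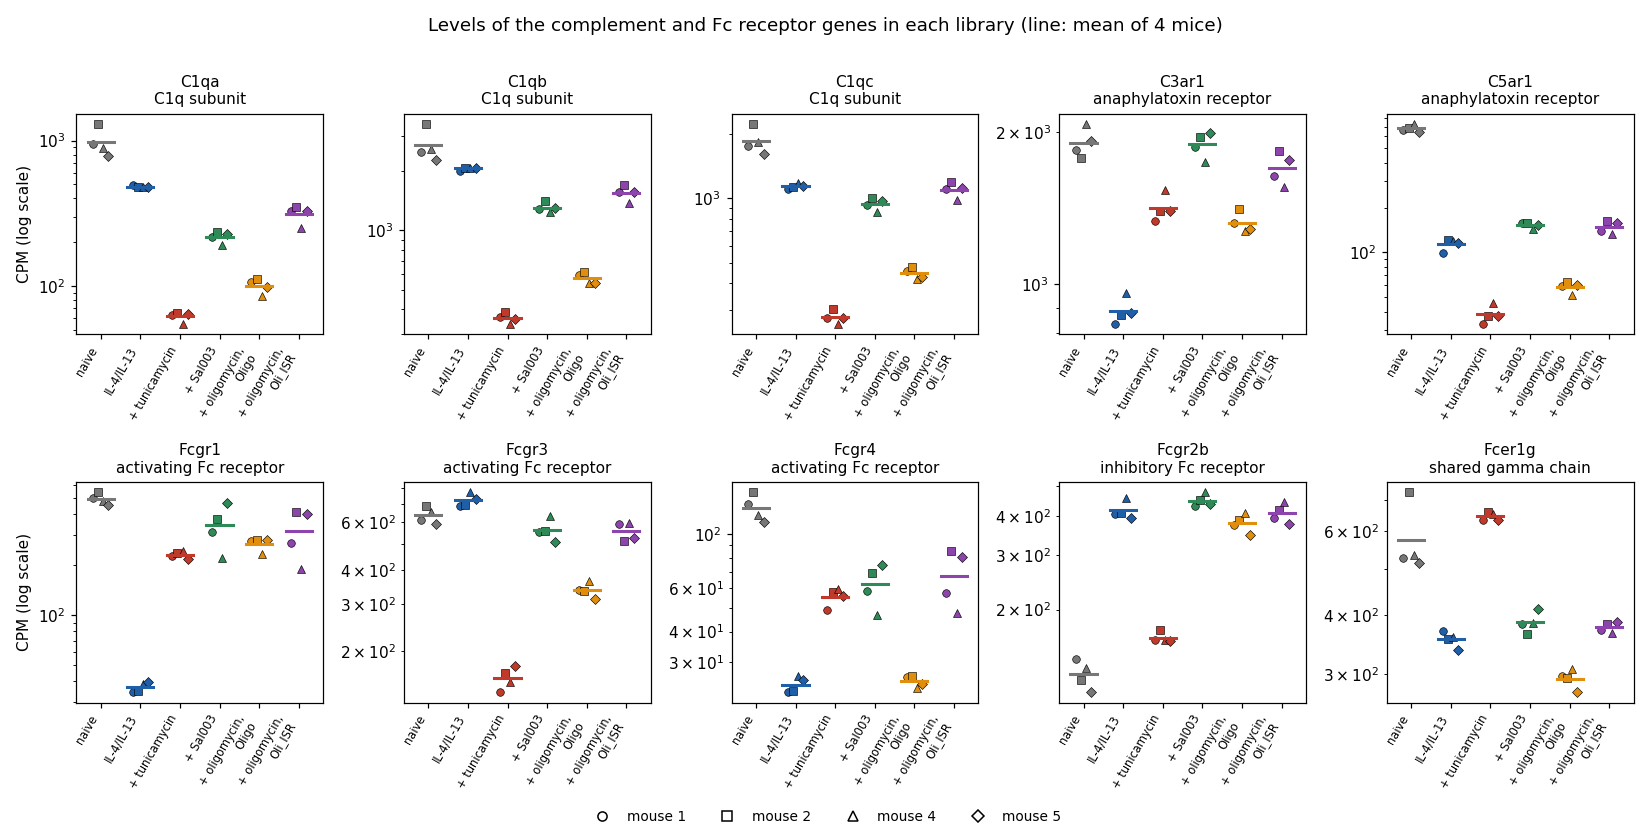
Level of each gene in CPM (y axis, log scale, with its own range in each panel) in the 6 groups (x axis), with 1 point per mouse and a line at the mean. *C1qa* fell from a mean of 982 CPM in naive cells to 61.8 with tunicamycin, *Fcgr1* was lowest with IL-4/IL-13 alone at 36.9 CPM, and *Fcgr2b* was lowest in naive cells at 124 CPM.

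The anaphylatoxin receptors both fell with IL-4/IL-13 and then parted. *C3ar1*, the receptor of C3a, was at 1842, 1779.7, 2080.1 and 1921 CPM in naive cells and at 834, 869, 964 and 877 CPM with IL-4/IL-13 (log2 fold change -1.10, standard error 0.06, adjusted *P* = 8.1e-14). Every agent raised it above every IL-4/IL-13 library, to 1334, 1398, 1538 and 1398 CPM with tunicamycin (log2 fold change 0.68, standard error 0.06, adjusted *P* = 3.6e-10), 1869, 1961, 1748 and 1996 CPM with Sal003 (log2 fold change 1.10, standard error 0.06, adjusted *P* = 2.8e-13), 1325, 1413, 1276 and 1289 CPM in Oligo (log2 fold change 0.58, standard error 0.06, adjusted *P* = 9.4e-09) and 1642, 1833, 1558 and 1762 CPM in Oli_ISR (log2 fold change 0.94, standard error 0.06, adjusted *P* = 3.7e-12). With Sal003 its level overlapped that of naive cells and did not differ past the threshold (adjusted *P* = 0.9, 95% interval of the log2 difference -0.14 to 0.12). It was lower than in naive cells with tunicamycin (log2 fold change -0.43, adjusted *P* = 9.4e-07) and in Oligo (log2 fold change -0.52, adjusted *P* = 4.7e-08), and by a small margin in Oli_ISR (log2 fold change -0.17, adjusted *P* = 0.022), a call that was lost without mouse 1, 4 or 5 (adjusted *P* = 0.071, 0.19 and 0.063).

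*C5ar1*, the receptor of C5a, was at 665, 688, 731 and 647 CPM in naive cells and 99.4, 121, 120.2 and 116 CPM with IL-4/IL-13, a 5.98-fold fall (log2 fold change -2.58, standard error 0.08, adjusted *P* = 1.7e-18). Tunicamycin lowered it further to 32.9, 37.7, 45.6 and 37.6 CPM (log2 fold change -1.57, standard error 0.09, adjusted *P* = 1.5e-14), and in Oligo it was at 59.8, 63.7, 51.9 and 60.3 CPM (log2 fold change -0.95, standard error 0.08, adjusted *P* = 3e-10). It rose slightly with Sal003, to 159, 157, 144 and 152 CPM (log2 fold change 0.42, adjusted *P* = 0.00012), and in Oli_ISR, to 139.5, 163, 132 and 159 CPM (log2 fold change 0.38, adjusted *P* = 0.00035), without overlap with the IL-4/IL-13 libraries. In all 5 cytokine groups it remained below every naive library, by 4.46-fold with Sal003 and by 17.8-fold with tunicamycin.

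The 3 activating receptors followed 3 different patterns. *Fcgr1*, the high-affinity receptor of IgG, had the largest response to the cytokines among the members, from 504, 546, 484 and 457 CPM in naive cells to 34.4, 35.1, 38.5 and 39.7 CPM, a 13.5-fold fall (log2 fold change -3.75, standard error 0.21, adjusted *P* = 6.3e-14). Each agent raised it again, to 224, 236, 242 and 218 CPM with tunicamycin (log2 fold change 2.64, standard error 0.20, adjusted *P* = 1.2e-11), 313, 375, 219.7 and 469.6 CPM with Sal003 (log2 fold change 3.22, standard error 0.21, adjusted *P* = 2.4e-12), 276, 282, 232 and 281 CPM in Oligo (log2 fold change 2.86, standard error 0.20, adjusted *P* = 5.9e-12) and 269, 415, 189 and 403 CPM in Oli_ISR (log2 fold change 3.11, standard error 0.21, adjusted *P* = 3.4e-12). All 16 libraries with an agent lay above all 4 with the cytokines alone. Neighboring groups in the order Sal003, Oli_ISR, Oligo and tunicamycin overlapped and did not differ past the threshold (adjusted *P* = 0.75, 0.29 and 0.31), nor did Sal003 and Oligo (adjusted *P* = 0.1). Some of these differences passed in alternative settings. Tunicamycin was lower than Oligo with the 2 groups compared alone (log2 fold change -0.22, adjusted *P* = 0.0025). Sal003 was higher than Oligo without the filter (adjusted *P* = 0.013) and without mouse 4 (adjusted *P* = 0.01). Oligo was lower than Oli_ISR without mouse 4 (adjusted *P* = 0.042). Tunicamycin was lower than Sal003 (log2 fold change -0.58, adjusted *P* = 0.0068) and than Oli_ISR (log2 fold change -0.47, adjusted *P* = 0.025). The first of these calls was lost without mouse 5 (adjusted *P* = 0.13) and the other without mouse 1, 2 or 5 (adjusted *P* = 0.082, 0.19 and 0.23). All 4 agent groups were lower than naive cells, with 1 Sal003 library (mouse 5) inside the naive range. The calls for Sal003 and Oli_ISR against naive cells were lost without mouse 1 (adjusted *P* = 0.099 and 0.054).

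*Fcgr4*, the receptor of IgG2 subclasses, was at 133, 149, 119.5 and 111 CPM in naive cells and 22.6, 22.9, 26.2 and 25.4 CPM with IL-4/IL-13 (log2 fold change -2.40, standard error 0.15, adjusted *P* = 7.3e-13). It rose with tunicamycin, to 48.8, 57.8, 59.9 and 55.8 CPM (log2 fold change 1.20, standard error 0.15, adjusted *P* = 1.3e-07), with Sal003, to 58.6, 69.4, 46.5 and 74.9 CPM (log2 fold change 1.36, standard error 0.15, adjusted *P* = 4.5e-08), and in Oli_ISR, to 57.2, 85.1, 47.7 and 80.2 CPM (log2 fold change 1.48, standard error 0.15, adjusted *P* = 8.6e-09). In Oligo it was at 26.2, 26.4, 23.5 and 24.5 CPM, which overlapped the IL-4/IL-13 libraries (log2 fold change 0.05, adjusted *P* = 0.78, 95% interval -0.27 to 0.38). The 2 oligomycin groups thus differed 2.69-fold in *Fcgr4* (log2 fold change -1.43, standard error 0.15, adjusted *P* = 3e-08), while for *Fcgr1* the difference did not pass the test.

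*Fcgr3*, a low-affinity receptor for immune complexes, was the activating receptor that IL-4/IL-13 did not lower. It was at 611, 689, 655 and 592 CPM in naive cells and 689.95, 693, 777 and 731 CPM with IL-4/IL-13. The highest naive library lay just below the lowest with IL-4/IL-13 (log2 fold change 0.18, standard error 0.07, adjusted *P* = 0.035), and the call was lost without mouse 1, 4 or 5 (adjusted *P* = 0.073, 0.086 and 0.11). Tunicamycin lowered *Fcgr3* to 141, 166, 154 and 176 CPM (log2 fold change -2.18, standard error 0.08, adjusted *P* = 2e-18), and Oligo to 336, 334, 364 and 311 CPM (log2 fold change -1.10, standard error 0.07, adjusted *P* = 2.3e-12). With Sal003 it was at 552, 558, 635 and 508 CPM and in Oli_ISR at 591, 511, 596 and 523 CPM, both a small fall without overlap with IL-4/IL-13 (log2 fold change -0.36, adjusted *P* = 0.00023, and log2 fold change -0.38, adjusted *P* = 0.00011). Tunicamycin therefore moved *Fcgr1* and *Fcgr4* up and *Fcgr3* down in the same libraries.

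*Fcgr2b*, the inhibitory receptor, was the member that IL-4/IL-13 raised most. It was at 139, 119, 129.5 and 108 CPM in naive cells and at 404, 408, 457 and 395 CPM with the cytokines, a 3.36-fold rise (log2 fold change 1.75, standard error 0.07, adjusted *P* = 7.3e-17). Tunicamycin brought it to 159, 172, 159 and 159 CPM, below every IL-4/IL-13 library (log2 fold change -1.36, standard error 0.07, adjusted *P* = 2.5e-15) and above every naive library (log2 fold change 0.39, standard error 0.07, adjusted *P* = 1.5e-05). With Sal003 the values were 429.8, 448, 477 and 435 CPM, in Oligo 373, 387, 408 and 347 CPM and in Oli_ISR 395, 419, 442 and 376 CPM, and all 3 groups overlapped IL-4/IL-13. None of them passed the test, with 95% intervals of the log2 difference of -0.03 to 0.24, -0.27 to 0.00 and -0.17 to 0.11. With the mouse as a block, the value in Oligo passed it (log2 fold change -0.14, adjusted *P* = 0.021), and *Fcgr2b* was lower in Oligo in 4 of 4 mice. It also passed in 5 of the other settings tried.

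Activating and inhibitory receptor RNA were set against each other per kilobase of exons, as (*Fcgr1* + *Fcgr3* + *Fcgr4*) over *Fcgr2b*, with no test since it is a score over the members. The ratio was 18.8 to 24.4 in the naive libraries and 3.62 to 3.97 with IL-4/IL-13. It was 5.44 to 6.11 with tunicamycin, 3.73 to 4.81 with Sal003, 2.91 to 3.38 in Oligo and 3.76 to 5.41 in Oli_ISR. All 20 libraries with the cytokines thus lay far below the naive ones, the tunicamycin libraries lay above those of IL-4/IL-13, and the Oligo libraries below them. The sum and its makeup also changed. *Fcgr3* made up 44.3 to 47.7% of the activating sum in naive cells and 88.3 to 89% with IL-4/IL-13, and 30.1 to 35% with tunicamycin, where *Fcgr1* reached 38.3 to 43.4%. On canonical transcript lengths, the mean share of *Fcgr3* was 58.9% in naive cells, 93.4% with IL-4/IL-13 and 44.1% with tunicamycin, where that of *Fcgr1* was 37.3%, so which of the pair was higher with tunicamycin depended on the length. With these lengths the mean ratios were 19.4 in naive cells, 4.1 with IL-4/IL-13, 4.9 with tunicamycin, 4.14 with Sal003, 3.05 in Oligo and 4.47 in Oli_ISR.

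**Figure D3:**
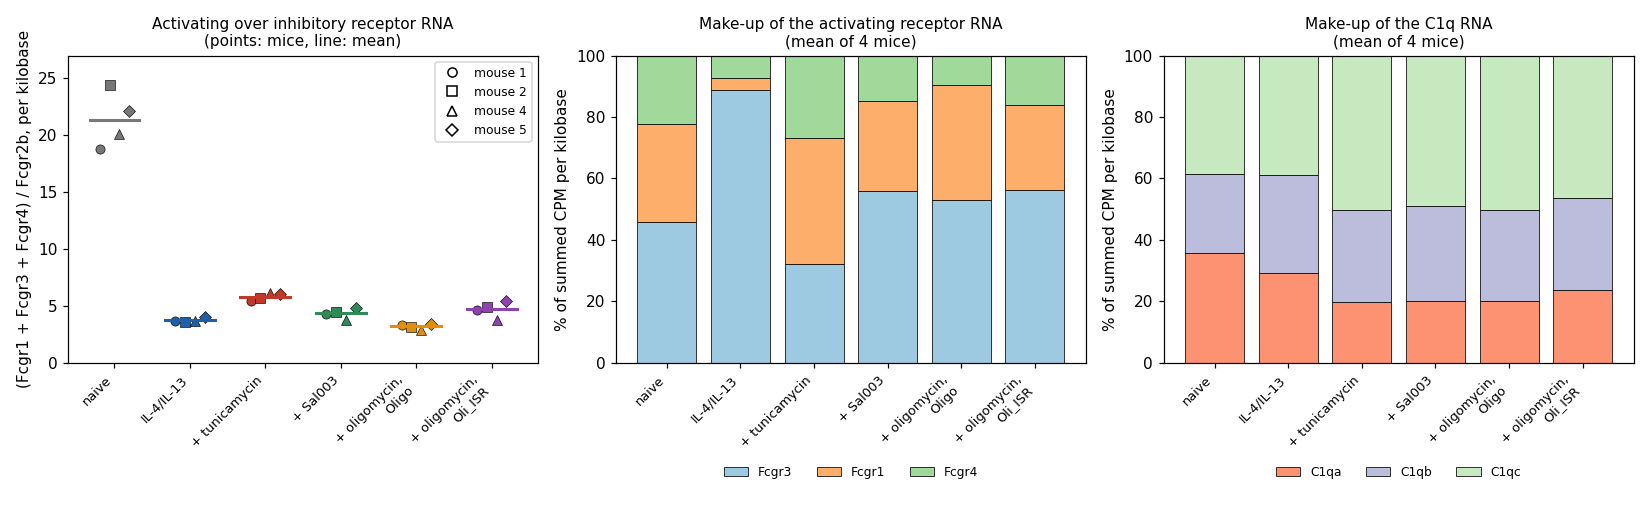
Left, ratio of activating to inhibitory receptor level (y axis, CPM per kilobase of exons) in the 6 groups (x axis), with 1 point per mouse and a line at the mean. Middle and right, bars with the mean share (%) of each activating receptor and of each C1q chain in their sum, where *Fcgr3* rises from a mean of 45.9% in naive cells to 88.8% with IL-4/IL-13 and *C1qa* falls from 35.8% to 29.1%.

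*Fcer1g* encodes the gamma chain that the activating receptors need for signaling and surface expression. It was at 527, 727, 535 and 515 CPM in naive cells, with mouse 2 above the others, and at 369.8, 357, 359 and 337 CPM with IL-4/IL-13 (log2 fold change -0.69, standard error 0.07, adjusted *P* = 1e-08). Tunicamycin raised it to 634, 659, 652 and 635 CPM (log2 fold change 0.86, standard error 0.07, adjusted *P* = 1.1e-10), within the range of the naive libraries. Against naive cells this was called higher by a small margin (log2 fold change 0.16, adjusted *P* = 0.045), which was lost without mouse 1, 4 or 5 (adjusted *P* = 0.12, 0.22 and 0.11). Sal003 (384, 364, 385 and 412 CPM) and Oli_ISR (372, 382, 366 and 388 CPM) overlapped IL-4/IL-13, with 95% intervals of the log2 difference of -0.03 to 0.27 and -0.07 to 0.24. In Oligo the level, 298, 294, 307 and 275 CPM, was below every IL-4/IL-13 library (log2 fold change -0.28, standard error 0.07, adjusted *P* = 0.0019). With tunicamycin, *Fcer1g* thus rose in the libraries in which its partner *Fcgr3* fell.

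Compared per kilobase of exons, which allows levels of different genes to be set side by side, the order in naive cells was *C1qc* (651 CPM per kilobase), *C1qa* (610.03), *Fcer1g* (497), *C1qb* (432), *C3ar1* (380.4), *C5ar1* (266), *Fcgr3* (206), *Fcgr1* (143), *Fcgr4* (100.1) and *Fcgr2b* (21.1). The places of *C1qb* and *Fcgr3* depend on the length used. For *C1qb*, 1 of its annotated transcripts is far longer than the canonical one (6146 and 2532 bases). On the canonical length it was the highest of the 10 in naive cells, at 1065 CPM per kilobase. *Fcgr3* was on that length at 412 CPM per kilobase, above *C3ar1* (380.4) and *C5ar1* (269). With IL-4/IL-13, *Fcgr1* had the lowest level of the 10, at 10.6 CPM per kilobase of exons.

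The mice agreed closely in most groups, and *Fcgr1* and *Fcgr4* were exceptions in the same 2 groups. Of 60 pairs of a member and a group, 55 had a coefficient of variation of 1.50 to 19.6%. The other 5 were *C1qa* in naive cells (23.1%), *Fcgr1* with Sal003 and in Oli_ISR (30.6 and 34.2%) and *Fcgr4* in these groups (20.1 and 26.6%). In both groups and for both genes, mouse 4 was lowest and mouse 1 next, and mice 2 and 5 were highest. The same mice showed no such spread for *Fcgr1* with IL-4/IL-13 alone or with tunicamycin, where the coefficients were 7 and 4.76%. Leaving out each mouse in turn moved the log2 fold change of *Fcgr1* against IL-4/IL-13 between 3.06 and 3.41 for Sal003 and between 2.94 and 3.32 for Oli_ISR, and all of these values were called.

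**Figure D4:**
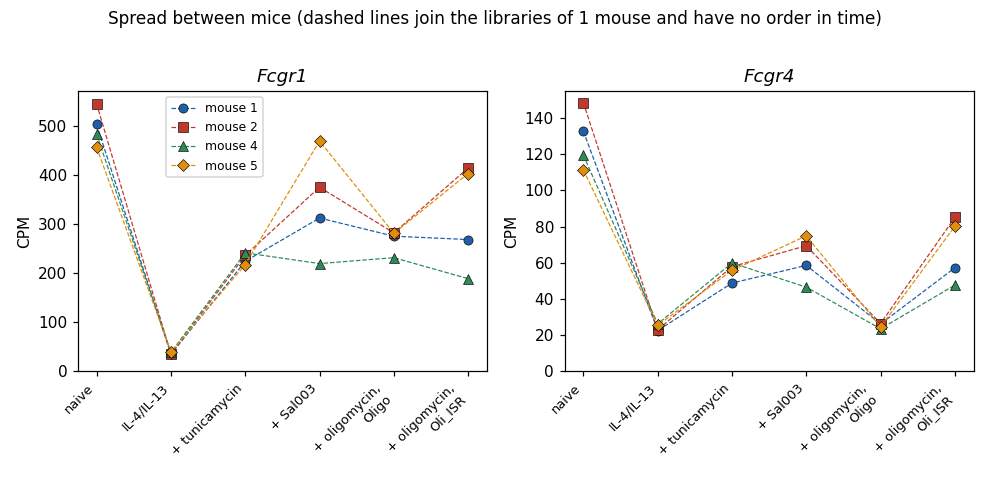
Level in CPM (y axis, from 0) of *Fcgr1* and *Fcgr4* in the 6 groups (x axis), with a symbol and color for each of the 4 mice and dashed lines that join the libraries of 1 mouse. With Sal003 and in Oli_ISR the mice spread apart, *Fcgr1* from 219.7 to 469.6 and from 189 to 415 CPM with mouse 4 lowest, whereas with IL-4/IL-13 alone they lay within 34.4 to 39.7 CPM.

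Across the 24 libraries the members fell into sets with like profiles, given here as correlations of log2 CPM that describe the 6 group levels above all and carry no *P* value. The 3 C1q genes had Pearson's *r* of 0.98, 0.975 and 0.991 with each other, and *Fcgr3* and *C5ar1* lay near them (*r* with *C1qb* of 0.933 and 0.867). *C3ar1* and *Fcgr1* formed another pair (*r* = 0.927), with *Fcgr4* next to them (0.827 and 0.738). *Fcgr2b* and *Fcer1g* ran against each other (*r* = -0.847). Among 9734 genes with a mean of at least 5 CPM, the profile most like the mean of C1q was that of *Fuca1* (*r* = 0.982), followed by *Gm15513* and *Hdac5* (0.981 and 0.98). For *Fcgr3* the closest were *Man2b1*, which encodes a lysosomal mannosidase, *Ldhb* and *Btbd1* (0.986, 0.984 and 0.984), and for *Fcgr2b* *Anxa4*, *Il1rl2* and *Flrt2* (0.986, 0.986 and 0.979). Close to *Fcgr1* were *Necap1* and *Ifitm3* (0.976 and 0.95), and close to *Fcgr4* were *Sirpb1b*, *Ms4a6b* and *Lipe* (0.948, 0.935 and 0.925). *C3ar1* was closest to *Acp2*, *Ms4a4c* and *Cd93* (0.933, 0.932 and 0.928), *C5ar1* to *Arhgef10l*, *Gdi2* and *Stard8* (0.985, 0.983 and 0.98), and *Fcer1g* to *Smim14*, *Ik* and *Slc39a13* (0.963, 0.963 and 0.959).

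Other genes of the same pathways were read from lists by function, and values after ± are SDs over the 4 mice. Beside the medians of the lists, those of all genes were -0.023, 0.0066, 0.0042, 0.006, 0.0026 and -0.002 in the same 6 comparisons. For IL-4/IL-13 against naive cells, 30.1% of all genes were called higher and 30.4% lower. Against IL-4/IL-13 these shares were 38.7% and 37.6% with tunicamycin and 25.9% and 24.6% with Sal003. They were 34% and 32.2% in Oligo, 27.9% and 26.4% in Oli_ISR, and 19.9% and 21.3% in Oligo against Oli_ISR. The counts of the lists were not tested against these shares, so a count alone shows no response of a pathway. Of 29 other complement proteins, 10 were expressed enough to be tested. With IL-4/IL-13 against naive cells, 1 higher and 4 lower were called, and against IL-4/IL-13 2 higher and 7 lower with tunicamycin, 3 higher and 2 lower with Sal003, 3 higher and 4 lower in Oligo and 2 higher and 2 lower in Oli_ISR, with 1 higher and 4 lower in Oligo against Oli_ISR. The median log2 fold changes of the list were -0.08 for IL-4/IL-13 against naive cells, -0.67, 0.26, 0.02 and 0.16 for tunicamycin, Sal003, Oligo and Oli_ISR against IL-4/IL-13, and -0.10 for Oligo against Oli_ISR. Properdin (*Cfp*), which stabilizes the alternative pathway convertase, fell from 528 ± 19.9 to 194 ± 16.4 CPM with Sal003 (log2 fold change -1.44, adjusted *P* = 9.7e-13) and also fell in Oligo and Oli_ISR, to 143 and 208 CPM. *C3*, the central component of the cascade, rose from 253 ± 24.5 to 648 ± 114 CPM with Sal003 (log2 fold change 1.35, adjusted *P* = 6.4e-09). In Oligo *C1ra* rose from 7.11 ± 0.474 to 19.2 ± 1.49 CPM, and *Fcna*, a ficolin, fell from 10.8 ± 1.31 to 1.38 ± 0.215 CPM with tunicamycin.

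Of 19 complement receptors and regulators, 14 were tested, with 4 higher and 5 lower for IL-4/IL-13 against naive cells, and 5 higher and 6 lower with tunicamycin, 4 higher and 5 lower with Sal003, 3 higher and 8 lower in Oligo and 1 higher and 5 lower in Oli_ISR against IL-4/IL-13. In Oligo against Oli_ISR they were 2 higher and 9 lower. Median log2 fold changes were -0.18 for IL-4/IL-13 against naive cells, -0.03, -0.08, -0.81 and -0.17 for tunicamycin, Sal003, Oligo and Oli_ISR against IL-4/IL-13, and -0.59 for Oligo against Oli_ISR. *Itgax*, the alpha chain of complement receptor CR4, rose from 19.5 ± 2.14 to 2109 ± 161 CPM with IL-4/IL-13 (log2 fold change 6.76, adjusted *P* = 1.9e-21) and was at 6.69 CPM with tunicamycin, 517 with Sal003 and 499 in Oligo. In Oli_ISR against IL-4/IL-13, *Itgax* had no called change of at least 2.5-fold. Its partner chain *Itgb2* rose from 768 ± 82.9 to 1985 ± 193 CPM with IL-4/IL-13 and was at 142 CPM with tunicamycin. *Cd93* fell from 363 ± 61.6 to 102 ± 13.1 CPM with IL-4/IL-13 and rose again to 324 CPM with Sal003 and 299.7 in Oli_ISR. Its means with tunicamycin (177 CPM) and in Oligo (248 CPM) were also above that with IL-4/IL-13 alone. *C5ar2*, the other receptor of C5a, fell from 24.7 ± 1.04 to 8.01 ± 0.299 CPM with IL-4/IL-13 and was at 1.81 CPM with tunicamycin, 3.19 in Oligo and 8.48 in Oli_ISR. *Lrp1* fell from 818 ± 54.5 to 107 ± 14.7 CPM with tunicamycin and *Calr* from 1935 ± 103 to 728 ± 27 CPM in Oligo. *Calr* rose to 7296 CPM with tunicamycin (log2 fold change 1.92, adjusted *P* = 1.2e-19).

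Of 13 other Fc receptors, 6 were tested, and they were 1 higher and 4 lower for IL-4/IL-13 against naive cells, 2 higher and 4 lower with tunicamycin, 2 higher and 3 lower with Sal003, 1 higher and 3 lower in Oligo, 2 higher and 2 lower in Oli_ISR and 0 higher and 3 lower in Oligo against Oli_ISR. Their medians on the log2 scale were -0.81 for IL-4/IL-13 against naive cells, -0.92, -0.53, -0.61 and 0.08 for tunicamycin, Sal003, Oligo and Oli_ISR against IL-4/IL-13, and -0.66 for Oligo against Oli_ISR. *Fcgrt*, the neonatal receptor that recycles IgG, fell from 146 ± 9.99 to 50.1 ± 3.15 CPM with tunicamycin (log2 fold change -1.54, adjusted *P* = 6e-12) and was at 34.5 CPM in Oligo and 52.6 in Oli_ISR. *Fcrl1* fell from 19.8 ± 1.42 to 1.08 ± 0.17 CPM with IL-4/IL-13 and rose to 9.81 CPM with tunicamycin.

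All 25 genes of FcγR signaling were tested. They were 6 higher and 16 lower with IL-4/IL-13 against naive cells, 11 higher and 13 lower with tunicamycin, 7 higher and 12 lower with Sal003, 3 higher and 15 lower in Oligo, 6 higher and 10 lower in Oli_ISR and 1 higher and 20 lower in Oligo against Oli_ISR. As medians, their log2 fold changes were -0.32 for IL-4/IL-13 against naive cells, -0.27, -0.10, -0.20 and -0.04 for tunicamycin, Sal003, Oligo and Oli_ISR against IL-4/IL-13, and -0.27 for Oligo against Oli_ISR. *Ptpn6*, the phosphatase SHP-1, fell from 522 ± 10.5 to 208 ± 6.71 CPM with IL-4/IL-13. The adaptor *Dok2* rose from 85.3 ± 13.9 to 441 ± 21.4 CPM with IL-4/IL-13 and was at 30.3, 120.04, 59.7 and 119.8 CPM with tunicamycin, with Sal003, in Oligo and in Oli_ISR. The kinase *Fgr* fell from 28.5 ± 4.2 to 5.11 ± 0.411 CPM in Oligo and was at 9.95 CPM with tunicamycin and 7.53 in Oli_ISR. *Cbl* fell from 382 ± 10.9 to 126 ± 10.7 CPM with tunicamycin and *Rac2* from 284 ± 6.06 to 101 ± 4.34 CPM in Oligo. *Rac2* rose to 722 CPM with tunicamycin (log2 fold change 1.35, adjusted *P* = 4.2e-16).

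Of 13 macrophage transcription factors, 12 were tested, and *Ddit3* had no value because its symbol belongs to more than 1 gene identifier. They were 4 higher and 8 lower with IL-4/IL-13, 4 higher and 8 lower with tunicamycin, 9 higher and 1 lower with Sal003, 5 higher and 2 lower in Oligo, 8 higher and 0 lower in Oli_ISR and 2 higher and 9 lower in Oligo against Oli_ISR. The factors had median log2 fold changes of -0.26 for IL-4/IL-13 against naive cells, -0.59, 0.36, -0.04 and 0.34 for tunicamycin, Sal003, Oligo and Oli_ISR against IL-4/IL-13, and -0.23 for Oligo against Oli_ISR. *Maf* fell from 869 ± 86.5 to 95 ± 4.32 CPM with IL-4/IL-13 (log2 fold change -3.19, adjusted *P* = 4e-21). *Cebpa* fell from 490.2 ± 16.9 to 56.4 ± 5 CPM with tunicamycin (log2 fold change -3.12, adjusted *P* = 3.9e-21). *Atf4*, the main transcription factor of the ISR, was at 136 CPM with IL-4/IL-13, 1094 with tunicamycin, 206 with Sal003, 704 in Oligo and 478 in Oli_ISR. *Pparg* rose from 55.6 ± 3.83 to 144 ± 6.21 CPM with IL-4/IL-13 and was at 22.5 CPM with tunicamycin.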

How the data were processed

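The authors sequenced single reads, trimmed adapters (Cutadapt 1.8) and discarded ribosomal and low-complexity sequences. Alignment to GRCm39 used STAR 2.7, and HTSeq 0.9.1 gave the count of each gene. The deposited values used are these raw counts of 56884 genes in 24 libraries. Excluded were 5 lines that name no gene, with 12.74 to 15.231% of all reads in a library. The authors' TPM table from RSEM 1.2.31 was not used, because its header has more names than its lines have cells.

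The counts were tested in edgeR 4.0.16 (R 4.3.3) with TMM normalization, filterByExpr by group (13679 genes), 1 coefficient per group over all libraries and the quasi-likelihood test. A gene was called where its *P* value, adjusted by the Benjamini-Hochberg method, was under 0.05, and a stricter count asked for 2.5-fold or more. The test was checked on simulated counts. That check missed its first criterion for the recovery of small changes, which was afterwards replaced by limits on bias, on the recovery of larger changes and on false calls. Members and lists were chosen with earlier results of these data known. Besides the members, the text names the 3 genes outside them most correlated with each (log2 CPM, prior count 2, mean of at least 5 CPM), and genes of the 5 pathway lists with at least 10 CPM in a group and a called change of 2.5-fold, at most 4 per list and comparison. Levels per kilobase used the union of annotated exons. Of the gene identifiers, 56323 were found in the annotation.

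Replicates differed beyond sampling noise (chi-square per gene 2.19 to 35.9). Libraries of 1 number come from 1 mouse. Their deviations from group means had a median correlation of 0.236, with 56 of 60 pairs over 0.1. Between libraries of different mice the median was -0.0543, with 7 of 180 pairs over 0.1. The study states no term for the mouse, so the mouse entered only as a replicate block among the alternatives. The others were DESeq2 1.42.0, upper-quartile and RLE normalization, no filter, at least 10 counts in every library, the groups compared alone, and leaving out each mouse. Canonical transcript lengths and the promoter stretches printed were chosen after values had been seen. Some genes and 1 motif within these rules are not reported here. A planned comparison of protein sequences was not made. Sequences were read from RefSeq windows (GRCm38.p6). Figures were drawn with matplotlib 3.10.9.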

Additional observations from a re-analysis of the deposited data

Results flagged for a closer look

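Among the 60 sets of 4 mice (10 members in 6 groups), 3 had 1 mouse far from the others by Dixon's criterion, the number that chance gives at 1 in 20. *Fcgr1* of mouse 4 in Oligo was at 231.7 CPM, against 275.56 in the nearest mouse. *Fcgr2b* of mouse 2 with tunicamycin was at 171.75 CPM, against 159.34 in the nearest. *Fcer1g* of mouse 2 in naive cells was at 726.61 CPM, against 535.31 in the nearest.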

How the results depend on the processing

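Over 11 alternative settings, 1063 of 1100 values of single members kept their direction and their side of the threshold, 24 lost a call and 8 gained one, and 87 of 100 differences kept both under every setting. The 5 values that changed sign belonged to differences without a call: *Fcgr4* in Oligo against IL-4/IL-13 without mouse 1 (range over mice left out -0.0075 to 0.13 on the log2 scale), *C1qc* in Oli_ISR against IL-4/IL-13 without mouse 4 (range -0.097 to 0.020), and *C3ar1* with Sal003 against naive cells without the filter (0.027), without mouse 4 (range -0.058 to 0.073) and with DESeq2 (0.0019). The cause was not tested.

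The number of members called moved by over 1.5 times only for Sal003 against Oli_ISR, from 2 to 1 with upper-quartile normalization and over a range of 0 to 3 when each mouse was left out. With at least 2.5-fold, the count for Oligo against Oli_ISR ranged from 2 to 5, against 4 in the report, and for Sal003 against IL-4/IL-13 from 1 to 2, against 2. With the replicate block, 3 members differed between Sal003 and Oli_ISR and 9 between Oligo and IL-4/IL-13, and the block left the other counts as they were. Calls near the threshold included *Fcgr3* with IL-4/IL-13 (adjusted *P* = 0.051 with upper-quartile normalization), *Fcer1g* with tunicamycin against naive cells (0.29 with upper-quartile normalization, 0.17 with at least 10 counts in every library and 0.14 with the 2 groups alone), *C3ar1* in Oli_ISR against naive cells (0.088 without the filter) and *Fcgr3* with Sal003 against naive cells (0.069 with DESeq2). *Fcgr1* in Oligo against Oli_ISR was called without mouse 4 (-0.37, adjusted *P* = 0.042). Over all settings, some of which tested more or fewer genes, the median of all genes moved by at most 0.098 on the log2 scale.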
